A study of Mus musculus with 9 samples.

Results

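Marginal zone B cell markers were examined in follicular B cells of mice whose B cells carry different immunoglobulin heavy chains. The set holds 8 genes named for marking this B cell type, 4 of them encoding surface proteins (Cd9, Cd1d1, Cd36 and Fcrl5) and 4 encoding intracellular proteins (Myof, Ptpn14, Cebpb and Mzb1). A gene was represented by its brightest probe set among those annotated with its symbol alone. All 8 genes had such a probe set, of 22180 genes with 1, and all 8 passed the filter on low signals that left 12170 genes for testing.

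The cells were splenic follicular B cells from mice aged 6 to 12 weeks. They came from Igh[epsilon]/[epsilon] VJk5 mice (ε/ε, named after the IgE heavy chain), from Igh[gamma]1/[gamma]1 VJk5 mice (γ1/γ1, named after the IgG1 heavy chain) and from Ighwt VJk5 mice (wild-type). The labels explain neither VJk5, which all 3 genotypes carry, nor how the alleles were built, and the design describes the B cells as polyclonal. Each genotype had 3 arrays, called independent but not stated to be separate animals, and the p-values therefore reflect only how much these particular samples vary, which may be technical.

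Marginal zone B cells sit at the border of the white pulp of the spleen, where blood-borne antigen arrives, and respond fast to it. Follicular B cells, the recirculating majority, populate the B cell follicles. In mice, signalling through Notch2 directs developing B cells to the marginal zone fate, and marginal zone B cells are recognised by high CD21 (Cr2), CD1d and CD9 with low CD23 (Fcer2a). The sort that gave these samples was of follicular cells, so the marginal zone genes were read here in a population from which marginal zone cells are meant to be absent.

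The arrays' medians over all probe sets lay between 3.53 and 3.69 on the log2 scale, and all signals below are the deposited log2 values. Pearson's r between arrays of 1 genotype, across the genes tested, lay between 0.929 and 0.958 among ε/ε arrays, 0.948 and 0.968 among γ1/γ1 arrays, and 0.970 and 0.978 among wild-type arrays. The female-specific transcript Xist read 5.25 on ε/ε array 1 and 4.53 on γ1/γ1 array 1, against 10.37 to 10.79 on the other 7 arrays, so both mutant genotypes mixed arrays of low and high Xist and wild-type did not. The Y-linked Eif2s3y read 7.40 and 7.99 on those 2 arrays, 5.40 on ε/ε array 2 despite its high Xist, and 2.75 to 3.64 on the other 6. All 10 pan-B cell genes with a value lay above the array median on every array.

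Among the intracellular markers, Myof, Ptpn14 and Cebpb were higher in ε/ε cells than in wild-type cells, by 1.68, 1.24 and 1.23 on the log2 scale. No surface marker passed the test in that comparison. Between the 2 mutant genotypes, the surface marker Cd36 and the intracellular marker Cebpb were higher in ε/ε cells, by 1.76 and 1.32. In γ1/γ1 cells against wild-type, 0 members passed limma's test.

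In counts, 3 of 8 members passed as higher and 0 as lower in ε/ε against wild-type, where 2.33% of all genes tested passed as higher and 4.02% as lower. The members were chosen with earlier results of these data known, so such counts are not independent of those results. At an unadjusted p under 0.05, 5 members were higher and 0 lower. Many genes reached that level in 1 direction or the other. The largest of the 5 limma p-values, 0.0478 for Mzb1, stood at rank 2959 of the 12170 genes tested. Counts at this level given below for lists in ε/ε against wild-type are to be read beside that rank. The 3 ε/ε arrays lay wholly above the 3 wild-type arrays for 4 members, which was the case for 11.8% of all genes, and wholly below for 0 members, against 16.6% of all genes. The median difference was 0.67 over the 8 members, -0.02 over the surface markers and 1.23 over the intracellular markers, against -0.01 over all genes. Leaving out wild-type array 2 reduced the count to 1 member, Myof, and leaving out ε/ε array 1 raised it to 4 by adding Cd36. Over all genes the calls fell in both fits, from 772 to 186 without wild-type array 2 and to 525 without ε/ε array 1. As these are bulk samples, more cells of a type and more RNA per cell cannot be told apart for any of these genes.

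For γ1/γ1 against wild-type, 0 of 8 members passed, where 0.0247% of all genes passed as higher and 0.0164% as lower. At an unadjusted p under 0.05, 2 members were higher (Ptpn14 and Myof) and 1 lower (Cd36). The largest of these 3 limma p-values, 0.00409 for Cd36, stood at rank 103 of the 12170 genes tested. The same 3 members were those whose γ1/γ1 and wild-type arrays did not overlap. All genes gave 4.68% with γ1/γ1 wholly above and 7.71% with γ1/γ1 wholly below. The median difference was 0.10 over the 8 members, 0.10 over the surface markers and 0.45 over the intracellular ones, against -0.02 over all genes.

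For ε/ε against γ1/γ1, 2 of 8 members passed as higher and 0 as lower, where 1.02% of all genes passed as higher and 1.64% as lower. The ε/ε arrays lay wholly above the γ1/γ1 arrays for 3 members (Cd36, Cebpb and Myof), which 9.86% of all genes did, and wholly below for 1 (Cd1d1), which 11.3% did. The median difference was 0.28 over the 8 members, -0.15 over the surface markers and 0.66 over the intracellular markers, against 0 over all genes. The 3 comparisons share arrays and one shared estimate of the spread, so each stands beside the others and does not add to them. Leaving out ε/ε array 1, γ1/γ1 array 2 or γ1/γ1 array 3 left 1 member, Cd36. Over all genes these fits called 196, 160 and 122, against 324 with all arrays.

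**Figure D1:**
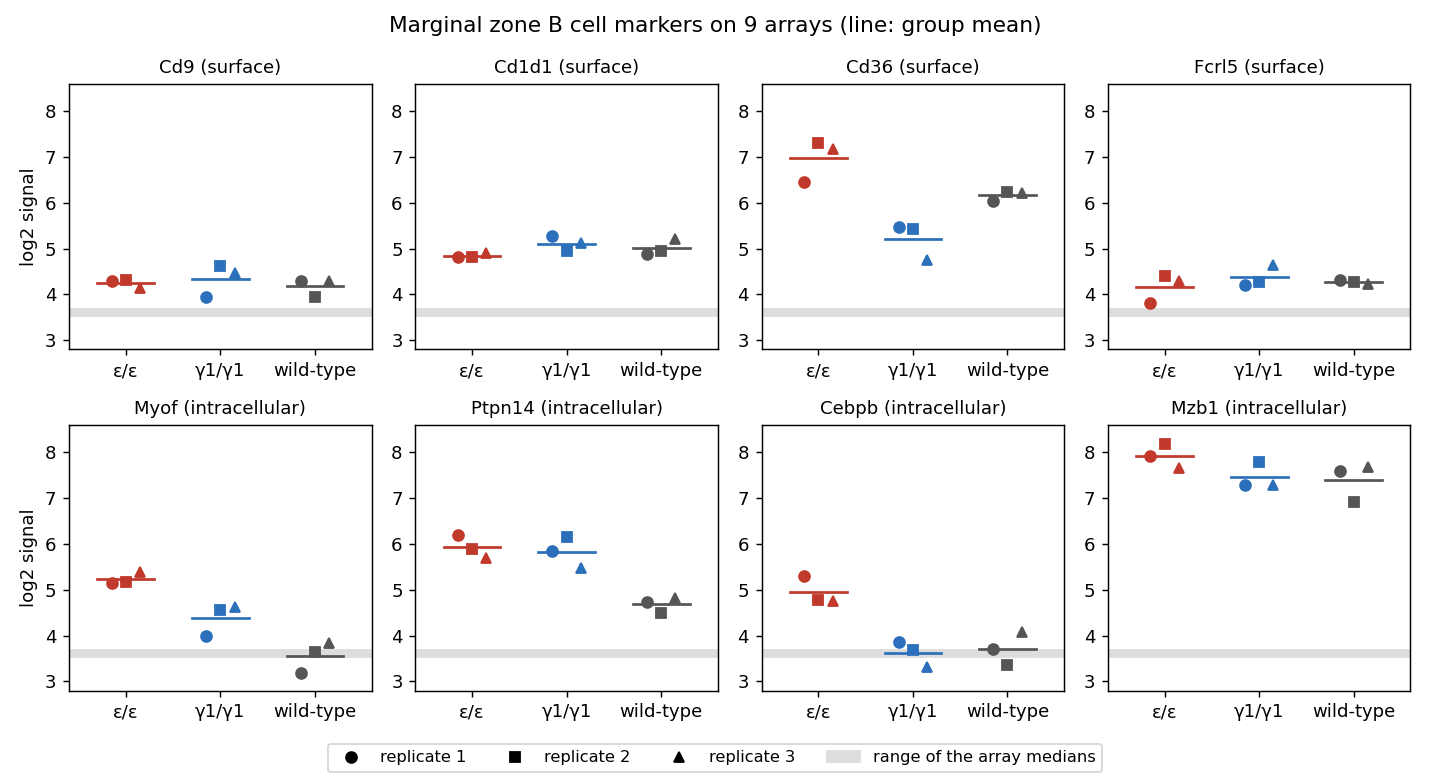
Log2 signal (y axis) of the 8 markers on each of the 9 arrays, 1 panel per gene, with surface markers in the upper row and intracellular ones in the lower. Points are arrays, grouped as ε/ε, γ1/γ1 and wild-type from left to right, with a symbol per replicate, lines are group means and the grey band is the range of the array medians. Myof and Cd36 separate all 3 genotypes without overlap, Ptpn14 separates both mutant genotypes from wild-type, and Cd9 and Fcrl5 overlap throughout.

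Myof encodes myoferlin, a membrane-anchored protein of the ferlin family that takes part in membrane fusion and repair. Its signal was 5.16, 5.17 and 5.39 on the ε/ε arrays, 3.99, 4.56 and 4.63 on the γ1/γ1 arrays and 3.18, 3.64 and 3.85 on the wild-type arrays. The 3 genotypes did not overlap, with ε/ε highest and wild-type lowest, and the wild-type signals lay about the array medians, so no linear fold is given.

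Against wild-type, Myof was higher in ε/ε cells by 1.68 on the log2 scale (SE 0.22, 95% interval 1.20 to 2.17, limma adjusted p = 0.00378). It was the only member whose call held under all 19 alternative settings, with adjusted p between 0.00235 and 0.0199. The difference of γ1/γ1 from wild-type was 0.84 (95% interval 0.35 to 1.32) with an unadjusted p of 0.00321 and an adjusted p of 0.482. Between ε/ε and γ1/γ1 it was 0.85 (95% interval 0.36 to 1.33, adjusted p = 0.0681). Of the other genes, those whose profiles over the 9 arrays lay nearest to Myof were Adm, which encodes the peptide adrenomedullin, and Chka, a choline kinase. Their root mean square differences from Myof were 0.263 and 0.265 after each profile was centred on its mean, against Myof's own SD of 0.772 over the arrays. Of 2 ferlin genes tested, Myof was the 1 that passed.

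Ptpn14 encodes a non-receptor tyrosine phosphatase that binds the growth regulator YAP in other cell types. Its signal was 6.20, 5.89 and 5.69 on the ε/ε arrays, 5.84, 6.16 and 5.49 on the γ1/γ1 arrays and 4.75, 4.49 and 4.83 on the wild-type arrays. Both mutant genotypes lay wholly above wild-type and overlapped each other.

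Ptpn14 was 2.36-fold higher in ε/ε than in wild-type cells, a log2 difference of 1.24 (SE 0.20, 95% interval 0.79 to 1.69, adjusted p = 0.00936). Without wild-type array 2 the adjusted p was 0.0504. In γ1/γ1 cells its mean was 2.20-fold that of wild-type, a log2 difference of 1.14 (SE 0.20, 95% interval 0.69 to 1.59). That difference had an unadjusted p of 0.000211, the 14th smallest of the comparison, and an adjusted p of 0.184. ε/ε and γ1/γ1 differed by 0.10 (95% interval -0.35 to 0.55, adjusted p = 0.826), an interval that leaves room for a difference in either direction.

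Ptpn14 was the only gene of 14 tested PTPN phosphatases that passed as higher in ε/ε against wild-type. Ptpn12, a phosphatase that acts on cytoskeletal adaptor proteins, fell by 0.71 (SE 0.15, adjusted p = 0.0271). The profiles nearest to that of Ptpn14 belonged to AW112010 and H2-Q5, the last a class I histocompatibility gene of a family whose members share sequence. Their root mean square differences from Ptpn14 were 0.207 and 0.259, against Ptpn14's own SD of 0.639.

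Cebpb encodes C/EBPβ, a leucine zipper transcription factor that is also abundant in macrophages. Its signal was 5.30, 4.78 and 4.75 on the ε/ε arrays, 3.85, 3.69 and 3.31 on the γ1/γ1 arrays and 3.70, 3.36 and 4.08 on the wild-type arrays. The ε/ε arrays stood above the other 6, which overlapped and lay about the array medians, so no linear fold is given.

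Cebpb was higher in ε/ε than in wild-type cells by 1.23 on the log2 scale (SE 0.23, 95% interval 0.71 to 1.75, adjusted p = 0.0156). Without wild-type array 2 the adjusted p was 0.0695. Against γ1/γ1 it was higher in ε/ε cells by 1.32 (SE 0.23, 95% interval 0.81 to 1.84, adjusted p = 0.0177), and the adjusted p exceeded 0.05 without ε/ε array 1 (0.0517), γ1/γ1 array 2 (0.0568) or γ1/γ1 array 3 (0.0689). The difference of γ1/γ1 from wild-type was -0.09 (95% interval -0.61 to 0.42, adjusted p = 0.956). No other gene of the 5 tested C/EBP genes passed in ε/ε cells against wild-type. The nearest profiles to Cebpb were those of Dcpp1 and Luzp4, at root mean square differences of 0.187 and 0.194, against Cebpb's own SD of 0.697.

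Mzb1 encodes a chaperone of the endoplasmic reticulum that helps immunoglobulin assembly and was named after marginal zone B and B1 cells. Its signal was 7.92, 8.18 and 7.66 on the ε/ε arrays, 7.29, 7.78 and 7.30 on the γ1/γ1 arrays and 7.58, 6.91 and 7.68 on the wild-type arrays. All 3 genotypes overlapped. The difference of ε/ε from wild-type was 0.53 (SE 0.24, 95% interval 0.01 to 1.06), with an unadjusted p of 0.0478 and an adjusted p of 0.197. ε/ε differed from γ1/γ1 by 0.47 (95% interval -0.06 to 0.99, adjusted p = 0.306), and γ1/γ1 from wild-type by 0.06 (95% interval -0.46 to 0.59, adjusted p = 0.975). Mzb1 is also high in plasma cells. Of 7 tested plasma cell genes, 0 passed limma's test in ε/ε against wild-type, 2 at an unadjusted p under 0.05, and the summed linear signal of all 10 plasma cell genes was 352.7 to 382 in ε/ε cells, 350.7 to 454.6 in γ1/γ1 cells and 318.3 to 350.1 in wild-type cells.

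Cd36 encodes a scavenger receptor for oxidised lipids and fatty acids that mouse marginal zone B cells share with macrophages and platelets. Its signal was 6.44, 7.31 and 7.18 on the ε/ε arrays, 5.46, 5.44 and 4.76 on the γ1/γ1 arrays and 6.04, 6.24 and 6.21 on the wild-type arrays. The 3 genotypes did not overlap, with ε/ε highest, wild-type between and γ1/γ1 lowest, an order that Myof did not share.

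Cd36 was 3.38-fold higher in ε/ε than in γ1/γ1 cells, a log2 difference of 1.76 (SE 0.25, 95% interval 1.19 to 2.33, adjusted p = 0.00879). With only these 6 arrays in the fit the adjusted p was 0.0573. Neither mutant genotype passed against wild-type. The difference of ε/ε from wild-type was 0.82 (SE 0.25, 95% interval 0.25 to 1.38, adjusted p = 0.0829), and without ε/ε array 1 it was 1.08 with an adjusted p of 0.0334. The difference of γ1/γ1 from wild-type was -0.94 (95% interval -1.51 to -0.37, unadjusted p = 0.00409, adjusted p = 0.482). The nearest profiles to Cd36 belonged to Atp1b1, a subunit of the sodium pump, and Syne1, a protein of the nuclear envelope, at root mean square differences of 0.371 and 0.374. Cd36's own SD over the arrays was 0.824, and the nearest other member was Cebpb at 0.541.

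Cd9 encodes a tetraspanin, a 4-pass membrane protein, and is one of the surface proteins by which marginal zone and B1 cells are told from follicular cells. Its signal was 4.30, 4.31 and 4.13 on the ε/ε arrays, 3.95, 4.62 and 4.47 on the γ1/γ1 arrays and 4.30, 3.94 and 4.30 on the wild-type arrays. All 3 genotypes overlapped. The differences were 0.07 for ε/ε against wild-type (95% interval -0.36 to 0.49, adjusted p = 0.873), 0.16 for γ1/γ1 against wild-type (95% interval -0.26 to 0.59, adjusted p = 0.893) and -0.10 for ε/ε against γ1/γ1 (95% interval -0.53 to 0.33, adjusted p = 0.816). A second probe set for Cd9 read 2.79 to 3.35 and lay below the array median on all 9 arrays. Of 13 tested tetraspanin genes, 0 passed in ε/ε against wild-type with limma, and 5 were higher at an unadjusted p under 0.05.

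Cd1d1 encodes CD1d, which presents lipids to natural killer T cells. Its signal was 4.82, 4.82 and 4.89 on the ε/ε arrays, 5.27, 4.94 and 5.12 on the γ1/γ1 arrays and 4.89, 4.94 and 5.20 on the wild-type arrays. The ε/ε arrays lay below all γ1/γ1 arrays by a gap of 0.0491. The differences were -0.17 for ε/ε against wild-type (95% interval -0.48 to 0.15, adjusted p = 0.512), 0.10 for γ1/γ1 against wild-type (95% interval -0.22 to 0.42, adjusted p = 0.918) and -0.26 for ε/ε against γ1/γ1 (95% interval -0.58 to 0.05, adjusted p = 0.339). The neighbouring Cd1d2 is a near-identical copy, and whether the Cd1d1 probes tell the copies apart was not tested. Psap encodes the precursor of the saposins, which load lipids onto CD1d, and passed among the 3 tested genes of CD1 lipid presentation. It was higher in ε/ε cells by 1.46 against wild-type (SE 0.22, adjusted p = 0.0067) and by 1.30 against γ1/γ1 (adjusted p = 0.0157), a call missed in 4 of 19 alternative settings, among them those without γ1/γ1 array 2 (0.0501) or 3 (0.0644). Psap was brightest on ε/ε array 1, the array with the highest signal of macrophage genes, at 8.71 against 8.01 and 8.16 on ε/ε arrays 2 and 3.

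Fcrl5 encodes an Fc receptor-like protein that dampens signals from the B cell receptor and is high on marginal zone and B1 cells in mice. Its signal was 3.81, 4.40 and 4.29 on the ε/ε arrays, 4.20, 4.28 and 4.64 on the γ1/γ1 arrays and 4.31, 4.28 and 4.22 on the wild-type arrays. All 3 genotypes overlapped. The differences were -0.11 for ε/ε against wild-type (95% interval -0.51 to 0.30, adjusted p = 0.76), 0.10 for γ1/γ1 against wild-type (95% interval -0.30 to 0.51, adjusted p = 0.93) and -0.21 for ε/ε against γ1/γ1 (95% interval -0.62 to 0.20, adjusted p = 0.553). Of 4 tested Fc receptor-like genes, 0 passed limma's test in ε/ε against wild-type, and 1 had an unadjusted p under 0.05. For Cd9, Cd1d1 and Fcrl5 the intervals of ε/ε against wild-type end at 0.49, 0.15 and 0.30, below the differences of the 3 intracellular markers that passed. That of the fourth surface marker, Cd36, ends at 1.38. Cd9 and Fcrl5 had signals little above the array medians, where a change can be read less well.

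**Figure D2:**
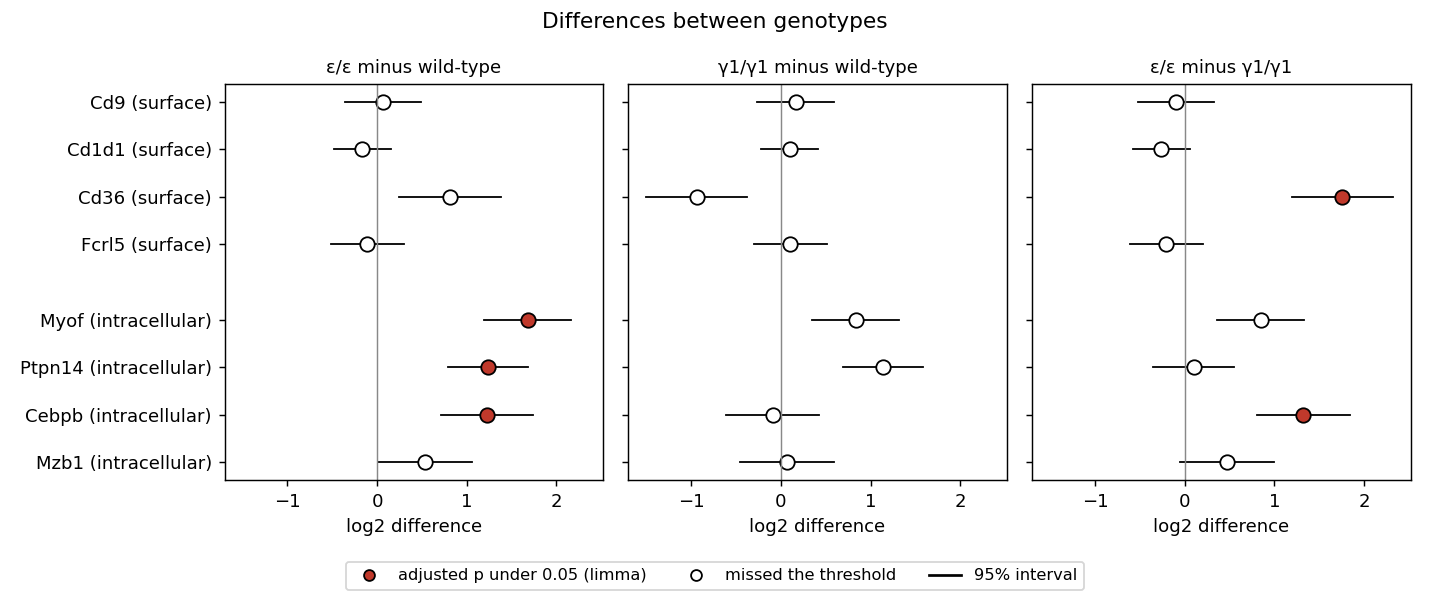
Log2 differences (x axis) of the 8 markers with 95% intervals from limma, in 3 panels for ε/ε minus wild-type, for γ1/γ1 minus wild-type, and lastly for ε/ε minus γ1/γ1. Filled symbols mark an adjusted p under 0.05 over all 12170 genes tested. The filled symbols are those of Myof, Ptpn14 and Cebpb for ε/ε minus wild-type and of Cd36 and Cebpb for ε/ε minus γ1/γ1.

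The 250 bases before the gene start are shown for the 4 members that passed in a comparison, to set their promoters side by side with the motif of the Notch pathway marked. Sequences are from RefSeq on GRCm38.p6, read 5′ to 3′ on the strand of the gene. Capitals mark TGGGAA, the core bound by RBPJ, the DNA-binding partner of Notch, in that orientation. Cd36 is at chr5:17835897-17836146 on the minus strand, Myof at chr19:38043578-38043827 on the minus strand, Ptpn14 at chr1:189728018-189728267 on the plus strand and Cebpb at chr2:167688665-167688914 on the plus strand.
Cd36 promoter: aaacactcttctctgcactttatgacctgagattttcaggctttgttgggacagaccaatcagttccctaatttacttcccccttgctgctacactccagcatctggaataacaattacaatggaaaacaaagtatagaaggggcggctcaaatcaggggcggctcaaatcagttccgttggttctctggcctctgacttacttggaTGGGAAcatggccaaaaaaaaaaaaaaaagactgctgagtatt
Myof promoter: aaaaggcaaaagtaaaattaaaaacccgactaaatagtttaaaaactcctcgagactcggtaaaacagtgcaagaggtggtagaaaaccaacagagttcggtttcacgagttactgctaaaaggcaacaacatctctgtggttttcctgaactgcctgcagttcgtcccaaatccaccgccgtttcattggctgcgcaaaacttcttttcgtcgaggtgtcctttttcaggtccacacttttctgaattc
Ptpn14 promoter: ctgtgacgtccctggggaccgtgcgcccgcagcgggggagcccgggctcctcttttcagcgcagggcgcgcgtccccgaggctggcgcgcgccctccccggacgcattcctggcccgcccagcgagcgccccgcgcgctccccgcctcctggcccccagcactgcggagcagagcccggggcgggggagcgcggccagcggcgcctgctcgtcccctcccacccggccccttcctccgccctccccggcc
Cebpb promoter: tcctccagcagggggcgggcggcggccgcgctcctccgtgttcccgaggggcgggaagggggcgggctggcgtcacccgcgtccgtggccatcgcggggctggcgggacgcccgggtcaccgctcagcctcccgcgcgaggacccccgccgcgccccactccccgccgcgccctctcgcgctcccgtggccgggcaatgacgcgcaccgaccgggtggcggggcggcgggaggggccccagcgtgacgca

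Of the 8 members, 6 were matched to a RefSeq promoter and searched on both strands, and Cd1d1 and Mzb1 were not matched. TGGGAA was found in 2 of the 6, Cd36 and Cd9, and in 21.6% of 32851 promoters of the same length. In Cd36 it began at position -43, counted back from the first base of the gene. The C/EBP motif TTGCNNAA was found in 0 of the 6 and in 9.56% of all promoters. A match describes these letters in this window and is not a measured binding site, and the promoters of Myof, Ptpn14 and Cebpb held no match to either motif.

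Beyond the 8 members, 24 other genes tied to marginal zone B cells were listed, of which 21 were tested. The list was drawn up with earlier results of these data known, so its counts are not independent of those results. In ε/ε cells 7 of the 21 were higher than in wild-type and 0 lower, beside the 2.33% and 4.02% of all genes given above. The median difference over the 21 was 0.25, against 0.31 over the 10 tested pan-B cell genes. The 6 with the largest difference were Il9r (the interleukin-9 receptor), Ackr3 (an atypical chemokine receptor that takes up CXCL12), Tlr9 (a DNA sensor), Itgal (the α chain of the integrin LFA-1), Hes1 (a transcriptional target of Notch) and Asb2 (part of a ubiquitin ligase and a Notch target). The seventh was Dtx1, a further Notch target. Differences over the 21 ran from -0.35 to 2.82. The lowest were S1pr1 at -0.35, Tnfrsf13b at -0.34, Mfng at -0.33 and Plac8 at -0.31, none of which passed. In γ1/γ1 cells 1 of the 21, Il9r, was higher than in wild-type and 0 were lower, where 0.0247% and 0.0164% of all genes passed. Between the mutant genotypes 4 were higher in ε/ε cells and 0 lower, with a median of 0.11, where 1.02% and 1.64% of all genes passed. Asb2, which entered the test through the ε/ε arrays alone, is among the 7 and the 4. Both counts thus include a gene whose direction the filter fixed, though the filter did not fix that it would pass.

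Il9r had signals of 8.52, 9.03 and 8.44 on the ε/ε arrays, 8.53, 8.88 and 9.03 on the γ1/γ1 arrays and 6.29, 5.12 and 6.10 on the wild-type arrays. Both mutant genotypes stood far above wild-type, with a difference of 2.82 in ε/ε cells (SE 0.30, adjusted p = 0.00152) and with a difference of 2.98 in γ1/γ1 cells (SE 0.30, adjusted p = 0.0122), and overlapped each other, the arrangement also seen in the signals of Ptpn14. Ackr3 had signals of 6.89, 6.97 and 6.40 on the ε/ε arrays, 5.04, 4.86 and 4.27 on the γ1/γ1 arrays and 4.28, 4.48 and 4.65 on the wild-type arrays. It was higher in ε/ε cells by 2.28 against wild-type (SE 0.23, adjusted p = 0.00127) and by 2.03 against γ1/γ1 (SE 0.23, adjusted p = 0.0036), as Cebpb was.

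The list held the Notch targets Hes1, Asb2, Dtx1 and Hes5, of which Hes5 did not pass. Hes1 had signals of 6.22, 5.90 and 5.83 on the ε/ε arrays, 4.80, 5.06 and 4.89 on the γ1/γ1 arrays and 5.0, 4.82 and 4.61 on the wild-type arrays. It was higher in ε/ε cells by 1.17 against wild-type (adjusted p = 0.00439) and by 1.07 against γ1/γ1 (adjusted p = 0.0104). Dtx1 was higher in ε/ε cells by 1.08 against wild-type (adjusted p = 0.00506) and by 0.72 against γ1/γ1 (adjusted p = 0.0397), and the second call was missed in 12 of 19 alternative settings. Its signal was 6.29, 6.48 and 6.39 on the ε/ε arrays and 5.57, 5.06 and 5.28 on the wild-type arrays. All 3 γ1/γ1 arrays held the same value, 5.67, so that group adds no spread to the fit behind both p-values. Asb2 had signals of 4.54, 4.66 and 4.0 on the ε/ε arrays, 3.56, 3.40 and 3.27 on the γ1/γ1 arrays and 3.31, 3.56 and 3.01 on the wild-type arrays. It lay below the array median on every γ1/γ1 and wild-type array and entered the test through the ε/ε arrays alone. The filter thus fixed the direction of its difference, and the size is not read. The adjusted p for Asb2 was 0.0147 against wild-type and 0.0352 against γ1/γ1, and the second call was missed in 9 of 18 settings. Hes5 differed by -0.13 between ε/ε and wild-type (adjusted p = 0.829) and by 0.07 between ε/ε and γ1/γ1 (adjusted p = 0.927). The receptor Notch2 itself differed by 0.16 between ε/ε and wild-type (SE 0.18, adjusted p = 0.631). It was picked for its role in the pathway after its value was seen.

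Tlr9 was higher in ε/ε than in wild-type cells by 1.24 (SE 0.28, adjusted p = 0.0303), and Itgal by 1.21 (SE 0.29, adjusted p = 0.0373). Itgal missed the threshold in 10 of 19 alternative settings and Tlr9 in 6. Of the listed genes, S1pr3 and Cd80 lay below the filter and Cd38 had no value. Leaving out wild-type array 3 reduced the 7 genes to 4, and leaving out ε/ε array 1 to 6. Over all genes these fits called 210 and 525, against 772 with all arrays. The call of Il9r in γ1/γ1 cells was lost without γ1/γ1 array 2 or 3, where calls over all genes went from 5 to 0 and 3. The 4 genes higher in ε/ε than in γ1/γ1 cells came to 2 without ε/ε array 1 or 2, any of the γ1/γ1 arrays, or wild-type array 3. Over all genes those fits called between 122 and 330, against 324 with all arrays.

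**Figure D3:**
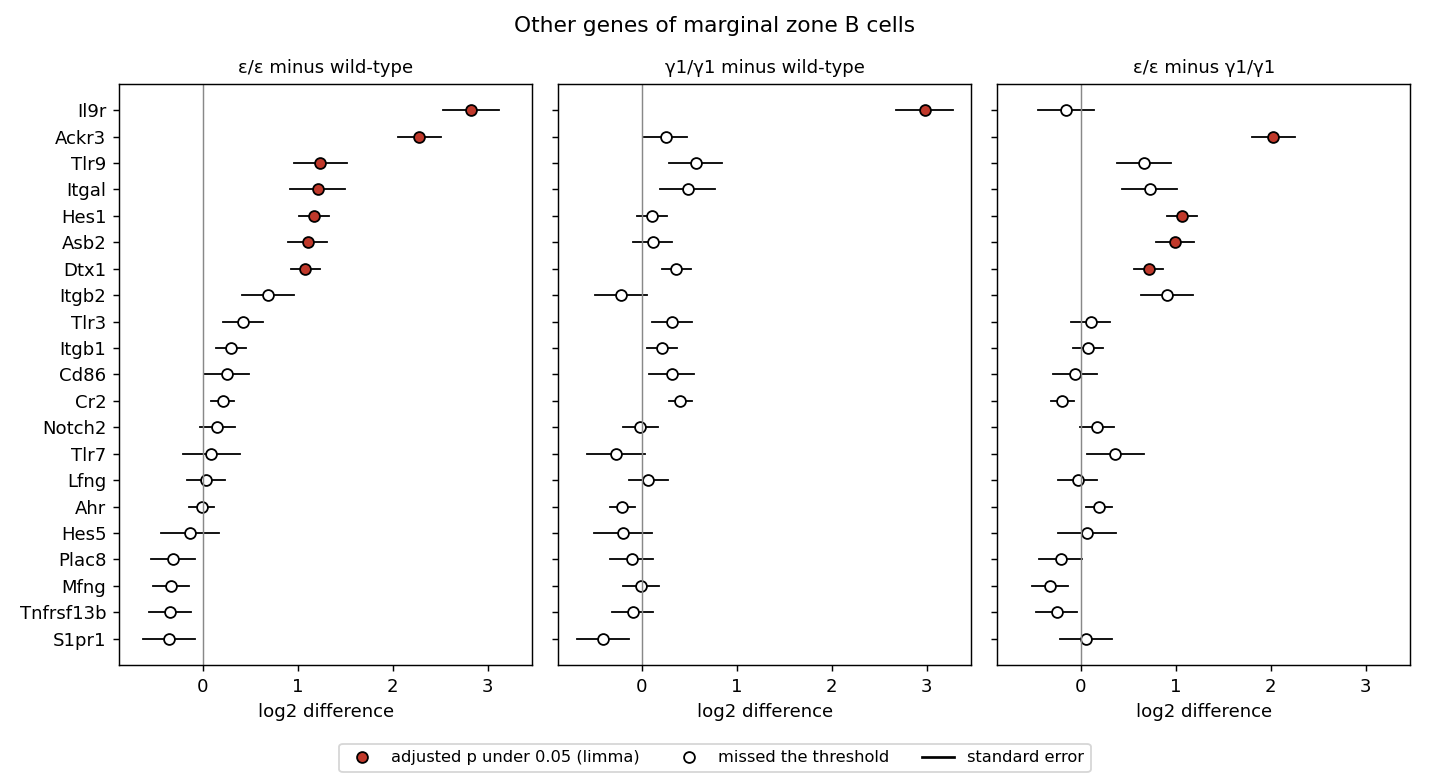
Log2 differences (x axis) of the 21 tested other marginal zone B cell genes (y axis), in 1 panel each for ε/ε minus wild-type, for γ1/γ1 minus wild-type, and for ε/ε minus γ1/γ1. Lines extend 1 standard error to each side, and filled symbols mark an adjusted p under 0.05 over all genes tested. Il9r stands at 2.82 and 2.98 in the first and second panels and near 0 in the third, and Ackr3 at 2.28 in the first and 2.03 in the third.

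The proteins that cytometry uses to divide follicular from marginal zone cells were added after their values had been seen. Cr2, which encodes CD21, had signals of 9.09 to 9.20 in ε/ε cells, 9.31 to 9.39 in γ1/γ1 cells and 8.84 to 8.99 in wild-type cells. The 3 genotypes did not overlap, but neither the difference of ε/ε from wild-type, 0.21 (adjusted p = 0.309), nor that of γ1/γ1, 0.41 (adjusted p = 0.524), passed the threshold. Fcer2a, which encodes CD23, had signals of 9.36 to 9.97 in ε/ε cells, 9.91 to 10.29 in γ1/γ1 cells and 9.02 to 9.51 in wild-type cells. ε/ε differed from wild-type by 0.54 (adjusted p = 0.141) and γ1/γ1 by 0.89 (adjusted p = 0.364), and neither passed. The Fcer2a signal lay far above the array medians in every group.

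Of 14 tested follicular B cell genes, 5 passed as lower and 0 as higher in ε/ε against wild-type, with a median of -0.22. Of all genes, 4.02% passed as lower and 2.33% as higher. At limma's unadjusted p under 0.05, 7 of the 14 differed, 2 of them higher. This list too was chosen with earlier results of these data known. The 3 with the largest fall were Zfp318, a regulator of IgD splicing, at -1.98 (adjusted p = 0.0015), Fcmr, the receptor for the Fc part of IgM, at -1.81 (adjusted p = 0.00397), and Cd200, an inhibitory surface ligand, at -1.38 (adjusted p = 0.0119). Against γ1/γ1, 3 were lower in ε/ε cells, namely Fcmr at -1.65 (adjusted p = 0.00921), Zfp318 at -1.57 (adjusted p = 0.0055) and the complement regulator Cd55 at -1.12 (adjusted p = 0.0109). Of all genes, 1.64% passed as lower in that comparison. In γ1/γ1 cells against wild-type 0 of the 14 passed limma's test, and 2 had an unadjusted p under 0.05. The count in ε/ε cells against wild-type was 3 when wild-type array 2 or 3 was left out. Over all genes those fits called 186 and 210, against 772 with all arrays.

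Set against the wild-type mean, the 4 intracellular markers averaged 1.31, 1.17 and 1.04 higher on the ε/ε arrays, 0.41, 0.71 and 0.34 on the γ1/γ1 arrays and -0.03, -0.24 and 0.27 on the wild-type arrays. All ε/ε arrays lay above all γ1/γ1 arrays, which lay above all wild-type arrays. Of the 4 genes, only Myof showed this order by itself. γ1/γ1 differed from wild-type by 1.14 for Ptpn14 and 0.84 for Myof, but by -0.09 for Cebpb and 0.06 for Mzb1. The 4 surface markers averaged -0.06, 0.30 and 0.22 on the ε/ε arrays, -0.19, -0.09 and -0.16 on the γ1/γ1 arrays and -0.02, -0.06 and 0.08 on the wild-type arrays. Of these 4 genes, Cd36 was the one whose ε/ε arrays lay wholly above wild-type. Only Cd36 had a lower mean in γ1/γ1 than in wild-type cells, as Cd9, Cd1d1 and Fcrl5 differed by 0.16, 0.10 and 0.10. The 14 follicular genes averaged -0.52, -0.34 and -0.55 on the ε/ε arrays, -0.32, 0.04 and 0.06 on the γ1/γ1 arrays and 0.18, -0.18 and 0.00 on the wild-type arrays.

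**Figure D4:**
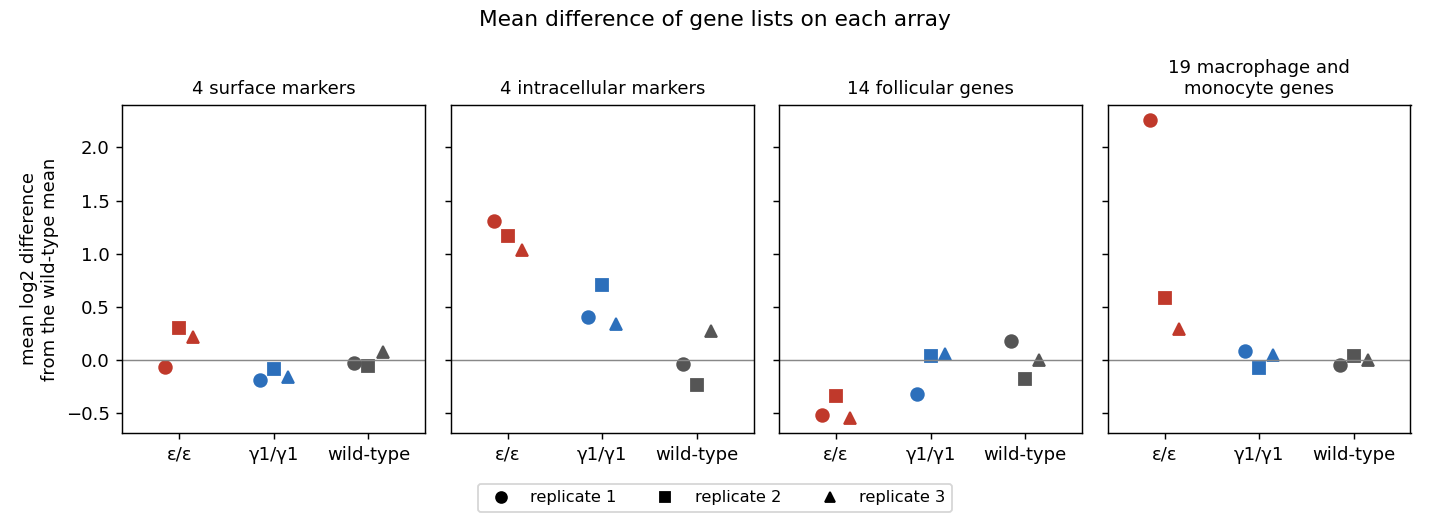
Mean log2 difference from the wild-type mean (y axis) of the 4 surface markers, the 4 intracellular markers, 14 follicular genes and 19 macrophage and monocyte genes, 1 panel each, for each of the 9 arrays, with ε/ε, γ1/γ1 and wild-type from left to right. Points are arrays, with a symbol per replicate. The intracellular markers sit at 1.04 to 1.31 on the ε/ε arrays, and the macrophage genes spread over 0.29 to 2.26 on the same arrays.

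Macrophage and monocyte genes had their highest signals on the ε/ε arrays, above all on array 1. The 19 such genes with a value averaged 2.26, 0.59 and 0.29 above the wild-type mean on the ε/ε arrays, 0.08, -0.07 and 0.05 on the γ1/γ1 arrays and -0.04, 0.04 and 0.00 on the wild-type arrays. Their summed linear signal was 329 to 2340.8 in ε/ε cells, 249 to 274.9 in γ1/γ1 cells and 247.4 to 259.1 in wild-type cells. Of the 19 genes, 11 to 18 lay above the array median in ε/ε cells, 9 to 10 in γ1/γ1 cells and 9 to 11 in wild-type cells. Of the 13 tested, 0 passed limma's test in ε/ε against wild-type, 5 were higher at an unadjusted p under 0.05, and the median difference was 1.20.

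Cebpb and Ptpn14 were brightest on ε/ε array 1, the array of highest macrophage signal, whereas Cd36, Myof and Mzb1 were not. Without that array, Cebpb was higher in ε/ε than in wild-type cells by 1.05 (adjusted p = 0.0422), Ptpn14 by 1.10 (adjusted p = 0.0286) and Myof by 1.72 (adjusted p = 0.0132). Cd36 was at its lowest of the ε/ε arrays there. The part of macrophage RNA in the results of the remaining ε/ε arrays was not tested.

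Platelets also carry Cd36 and Cd9. The 9 platelet and megakaryocyte genes with a value summed to a linear signal of 152.2 to 179.6 in ε/ε cells, 119.2 to 133.4 in γ1/γ1 cells and 102.7 to 133.1 in wild-type cells. Of the 4 tested, 1 passed as higher in ε/ε against wild-type, the integrin chain Itgb3 by 1.55 (SE 0.25, adjusted p = 0.00859), with a signal of 5.84, 5.96 and 6.37 on the ε/ε arrays, 4.62, 5.20 and 5.12 on the γ1/γ1 arrays and 4.21, 5.0 and 4.30 on the wild-type arrays. Of the genes below the filter on low signals, Pf4, Ppbp and Tubb1 differed by -0.12, -0.23 and -0.06 between ε/ε and wild-type. Gp6 and Clec1b, also below it, differed by 0.11 and 0.49. The other tested genes, Itga2b, Gp9 and Treml1, differed by 0.26, 0.14 and 0.11, and none of them passed. Over the 9 genes, the median shift from the wild-type mean was 0.13, -0.01 and -0.01 on the ε/ε arrays. Whether platelet RNA takes part in the Cd36 difference was not tested. Among 10 tested pan-B cell genes, 2 passed as higher in ε/ε against wild-type, the transcription factor Spib by 1.54 (adjusted p = 0.0253) and the adaptor Blnk by 0.79 (adjusted p = 0.0156). Of all genes, 2.33% passed as higher in this comparison, beside this count and that of the platelet list. The pan-B cell genes averaged 0.30, 0.54 and 0.54 above the wild-type mean on the ε/ε arrays. Their averages were 0.02, 0.28 and 0.20 on the γ1/γ1 arrays and 0.28, -0.32 and 0.05 on the wild-type arrays.

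The lists of B1, T, dendritic and granulocytic cells had 6, 2, 4 and 1 genes tested. In ε/ε against wild-type, 0 of each passed limma's test, and at an unadjusted p under 0.05 only 1 gene, of the dendritic list, was reached. B1 cells share Cd9, Fcrl5 and Mzb1 with marginal zone cells, and the median difference over the B1 genes was -0.05. The median over the dendritic genes tested was 0.32 in ε/ε and 0.26 in γ1/γ1 relative to wild-type. The 7 dendritic genes with a value averaged 0.28, 0.23 and 0.40 above the wild-type mean on the ε/ε arrays, 0.23, 0.14 and 0.40 on the γ1/γ1 arrays and 0.06, 0.00 and -0.06 on the wild-type arrays, and their part in the results was not tested.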

How the data were processed

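Transcript levels of splenic follicular B cells were read on 9 arrays, 3 per genotype. Per the labels' protocols, RNA was amplified with an Ovation PicoWTA kit. The authors deposited log2 signals of 41345 probe sets. The submitters' processing notes name R 3.3.1, and how background, normalization and the summary of probes were handled is not stated in those notes or the labels used here. The values themselves showed the log2 scale.

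Probe sets were named from the platform annotation, 23521 of them with 1 symbol, 1814 with several and 16010 with none. Probe sets with several symbols named no gene. The brightest probe set stood for a gene, and testing required a signal above the array median on at least 3 of 9 arrays. Each genotype got 1 mean in a single linear model over the 9 arrays (limma 3.58.1, R 4.3.3, eBayes, 6 residual degrees of freedom). Benjamini-Hochberg adjustment ran over the 12170 genes tested, with a threshold of 0.05. Every p-value in the text, adjusted or not, is from limma and is two-sided. For arrays, their number limits the precision. Equal values on several arrays occur in 45.9% of probe sets, among them Cd9 on 3 arrays and Cd1d1 and Fcrl5 on 2. Dtx1 had 1 value on all 3 γ1/γ1 arrays.

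The members and lists were chosen with earlier results of these data known. The rule named all 8 members, up to 6 passing genes of the other marginal zone list per comparison, at most 3 passing genes of each other list and the 2 genes of nearest profile to each passing member. Genes named outside it include Notch2, Hes5, S1pr1, Tnfrsf13b, Mfng, Plac8, Cr2, Fcer2a, Xist, Eif2s3y and the platelet genes that did not pass. The correlation of same-numbered arrays' deviations was between -0.0905 and 0.156 and did not exceed 0.1 in every pair of any comparison, so the numbers were not used to pair arrays. The alternatives were other normalizations, filters, probe set rules and variance models, subsets of arrays, a replicate block and each array left out. The fit was tested on simulated data. Plots were made in Python 3.11.15 with matplotlib 3.10.9.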

Additional observations from a re-analysis of the deposited data

How the results depend on the processing

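The direction and side of the threshold of Myof in ε/ε against wild-type held in all 19 alternative settings. With each array left out in turn, the count of members passing ranged from 1 to 4 for ε/ε against wild-type and from 1 to 2 for ε/ε against γ1/γ1. It was 0 throughout in the comparison of γ1/γ1 with wild-type. For ε/ε against γ1/γ1 it was 0 with only the 6 arrays compared and 1 when the fit kept just the 7 arrays with high Xist. Calls over all genes in that comparison were 56 and 88 in these settings, against 324 in the main fit. Other marginal zone genes higher in ε/ε against wild-type ranged from 4 to 7 with each array left out, in γ1/γ1 against wild-type from 0 to 1, and in ε/ε against γ1/γ1 from 2 to 4. The γ1/γ1 count was 0 with the replicate block, with only 6 arrays, and with the 7 arrays. Calls over all genes were 0, 0 and 3 there. The ε/ε against γ1/γ1 count was 1 with only 6 arrays and with the 7 arrays. Follicular genes lower in ε/ε ranged from 3 to 5 against wild-type with each array left out, and numbered 1 against γ1/γ1 with only the 6 arrays. With the replicate block, 3 members passed in ε/ε and 0 in γ1/γ1 relative to wild-type, and 3 between the mutant genotypes, where Myof joined at 0.85 (adjusted p = 0.0394). Only in ε/ε against γ1/γ1 did every array correlate best with its own number. Differences near 0 changed sign and stayed short of the threshold. For ε/ε against wild-type, Cd9 was -0.058 with the mean of its probe sets and -0.0538 to 0.125 with each array left out, and Fcrl5 was 0.0702 with the 7 arrays and -0.223 to 0.0702 with each left out. For γ1/γ1 against wild-type, Fcrl5 lay between -0.0301 and 0.188, Cebpb between -0.27 and 0.09 and Mzb1 between -0.18 and 0.21 with each array left out. For ε/ε against γ1/γ1, Cd9 lay between -0.300 and 0.0392 and Ptpn14 between -0.071 and 0.265 with each array left out, and Ptpn14 was -0.0309 with the 7 arrays. Cd9, Fcrl5 and Cebpb have no value with the filter at percentile 75. Fits that leave out arrays test fewer samples, and other causes were not tested. Signals near the array medians limit Myof and Cebpb outside ε/ε, and Cd9 and Fcrl5 in every genotype.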
